A study of Homo sapiens with 4 samples.

Results

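The genes studied here encode the proteins of the human mitochondrial ribosome. They were chosen by a rule on gene symbols that used no peak value, as protein-coding RefSeq genes on chromosomes 1 to 22 named MRPL or MRPS followed by a digit, which gave 77 of 19122 genes: 49 named for the large subunit (MRPL) and 28 for the small subunit (MRPS). The data are CUT&Tag peaks (a transposase, held at antibody-bound chromatin, cuts out the fragments to be sequenced) from NB4, a human acute promyelocytic leukemia cell line that carries the PML and RARA gene fusion. A first group used an antibody to PPARα, a nuclear receptor activated by fatty acids, and another an antibody to PML/RARA, whose epitope is not given. Each had 1 library and a matching library made with IgG. The labels call the antibody libraries treatment and the IgG libraries control, and name no drug, dose or time. There was 1 peak list per antibody and no replicate, read depth is unknown, and the IgG libraries were not analysed here, so no p-value is given and a missing peak means only that none was called.

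Mitochondria keep their own ribosome, which makes the membrane-embedded core subunits of the respiratory chain and ATP synthase from mitochondrial DNA. All of its proteins are encoded in the nucleus, made in the cytosol and imported. Some descend from proteins of the bacterial ribosome, and others were added in mitochondria. Since the particle needs its parts together, these genes are often treated as a coregulated housekeeping set, read from promoters rich in CpG.

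Nearly every gene of the mitochondrial ribosome carried a PML/RARA peak, and more than in the genome at large carried a PPARα peak. A gene was counted as marked when a peak came within 1 kb of either of its annotated ends (an end peak). PML/RARA peaks lay at 71 of 77 genes (92.2%, exact 95% interval 83.8 to 97.1), against 58.8% of all coding genes. PPARα peaks lay at 47 of 77 (61.0%, 49.2 to 72.0), against 32.8% of all coding genes. Both lay at 45 (58.4%, against 32.5%) and PML/RARA alone at 26 (33.8%, against 26.4%). PPARα alone lay at 2 (2.60%, against 0.377%), MRPL13 and MRPL22. Neither lay at 4 (5.19%, against 40.8%), MRPL24, MRPL35, MRPL36 and MRPL44. Among the 71 genes with PML/RARA, PPARα marked 63.4% (51.1 to 74.5), against 55.2% of all coding genes with PML/RARA. Intervals cover counting error over genes only, and neighbours that share a peak are not independent.

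The strength of the peaks was ordinary for gene ends. Fold enrichment is the authors' linear ratio of a peak over background, the folds of the 2 antibodies are not on a common scale, and the peak with the highest −log10 q stands for each gene. The median PPARα fold was 7.08 over the 47 marked genes and 7.07 over all 6281 marked coding genes. The median PML/RARA fold was 15.6 over the 71 marked genes and 14.2 over all 11253. PPARα folds ran from 4.29 at MRPL13 to 19.7 at MRPL54, and PML/RARA folds from 5.95 at MRPL23 to 37.1 at MRPS31. At 28 of the 47 genes the PPARα −log10 q was above the median of its whole list (6.33), and at 8 it was in the top 10%. For PML/RARA 63 of 71 were above the list median (11.9) and 16 in the top 10%. Peaks at gene ends were generally above those list medians, since the median −log10 q over all marked coding genes was 8.24 for PPARα and 43.3 for PML/RARA. Over the marked genes of the mitochondrial ribosome it was slightly lower, at 7.44 and 42.1. The shares of all marked coding genes above the list medians or in the top 10% were not computed.

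**Figure D1:**
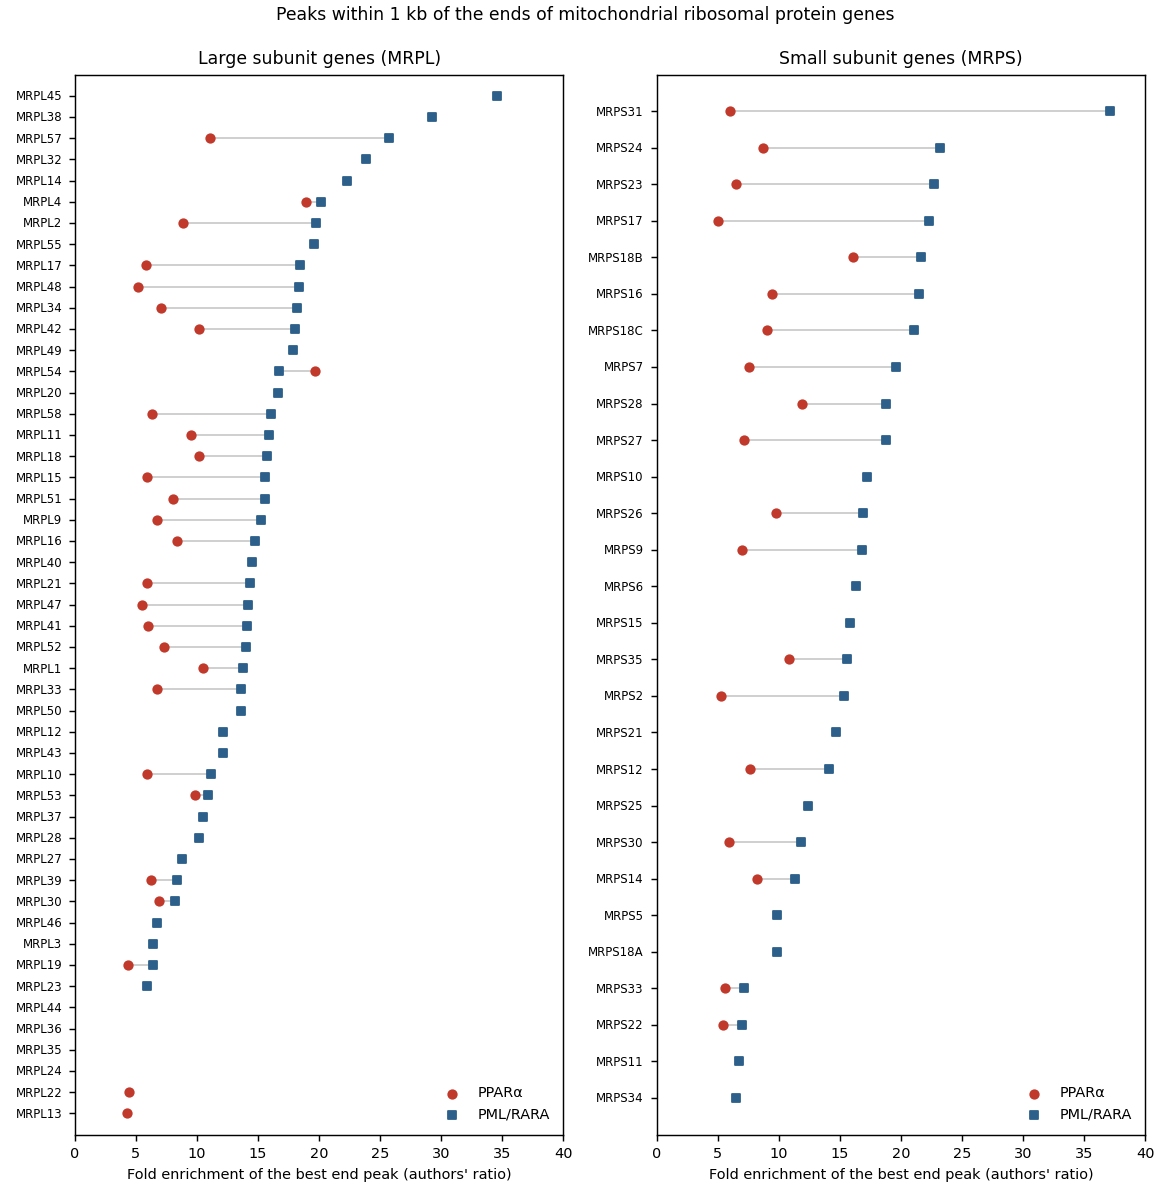
Fold enrichment of the best peak within 1 kb of either end of each mitochondrial ribosomal protein gene, on the horizontal axis, for PPARα (circles) and PML/RARA (squares), with large subunit genes on the left and small subunit genes on the right, ordered by PML/RARA fold. A gene without a symbol of a kind had no such peak, and 4 large subunit genes had neither; PPARα lay to the right of PML/RARA only at MRPL54 (19.7 and 16.7).

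For both antibodies the share of marked genes within 1 kb was higher in the small than in the large subunit, with intervals that overlapped. For PPARα the gap was gone with windows of 5 kb, at 33 of 49 large (67.3%) and 19 of 28 small subunit genes (67.9%). PPARα marked 28 of 49 large subunit genes (57.1%, 42.2 to 71.2) and 19 of 28 small subunit genes (67.9%, 47.6 to 84.1). PML/RARA marked 43 of 49 large subunit genes (87.8%, 75.2 to 95.4) and 28 of 28 small subunit genes (100%, 87.7 to 100). This gap narrowed with windows of 5 kb, to 47 of 49 (95.9%) and 28 of 28. Counted at the listed starts of genes that had one, it was 41 of 42 (97.6%) and 27 of 27. The median PPARα fold was 6.81 in the large and 7.59 in the small subunit, and the median PML/RARA fold was 14.7 and 16.1. All 6 genes without a PML/RARA end peak were MRPL genes, but 3 of them had a PML/RARA peak at a start inside the gene, as described further on. The proteins of MRPS18A and MRPS30 sit in the large subunit despite their names. With these genes counted there, PPARα marked 29 of 51 and 18 of 26, and PML/RARA 45 of 51 and 26 of 26.

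Shares were close between genes with and without a homologue in the bacterial ribosome. Of 46 genes whose protein has a homologue in the bacterial ribosome, 28 carried PPARα (60.9%) and 41 PML/RARA (89.1%). Of the other 31 genes, counted as specific to the mitochondrial ribosome, 19 carried PPARα (61.3%) and 30 PML/RARA (96.8%). The median PPARα fold was 7.02 and 7.18 in these groups, and the median PML/RARA fold 15.3 and 15.6.

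The strongest PPARα peaks lay at 3 genes that stood clear of the others. MRPL4, a homologue of a bacterial protein that lines the tunnel through which the new chain leaves, had a PPARα peak with fold 18.9 and −log10 q 97.9 (chromosome 19, 10251846 to 10252405). MRPL54, a mitochondria-specific large subunit gene, had 19.7 and 67.8 (chromosome 19, 3762513 to 3763152). MRPS18B, 1 of several human paralogues of bacterial S18, had 16.0 and 54.7 (chromosome 6, 30617338 to 30617946). The next PPARα −log10 q was 24.1, at MRPS26. MRPL18 (23.2), MRPS28 (22.1), MRPS35 (21.6), MRPL57 (21.3), MRPS16 (18.1) and MRPL11 (16.6) completed the 10 highest, 5 from each subunit.

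The strongest PML/RARA peaks were mostly at other genes, with 4 of the 10 highest shared with the PPARα ranking (MRPL4, MRPL54, MRPL57 and MRPS18B). The highest −log10 q was 487 at MRPL34, for a peak of fold 18.2. MRPS31 followed, at fold 37.1 and −log10 q 305 (chromosome 13, 40770939 to 40771530), and MRPL38 with 29.2 and 291. MRPL4 had a PML/RARA fold of 20.2, MRPS18B 21.6, MRPL54 16.7, MRPL49 17.8, MRPL55 19.6, MRPS24 23.2 and MRPL57 25.7. At MRPL45, whose protein anchors the ribosome at the inner membrane, a peak of only 165 bases had a fold of 34.5. RefSeq lists pseudogenes named for 39 of the 77 genes, among them 3 for MRPS31, 2 for MRPL45 and 7 for MRPL57. Reads at such genes may be split or shared with copies, and whether this touched their folds was not tested.

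Promoter sequences of 7 genes are shown because they carry the extremes and the motifs described next. They are MRPL4, MRPL54 and MRPS31 with the highest folds, MRPL42 and MRPS12 with both antibodies, and MRPS10 and MRPS18A with PML/RARA alone. Each runs from 150 bases before the start through the first 25 bases of the gene, 5′ to 3′ on the gene's strand, from RefSeq (GRCh38.p14). Capitals mark CCGGAAG, AAGATGGC or AGGTCA on either strand.
MRPL4, chr19:10251801-10251975, plus strand: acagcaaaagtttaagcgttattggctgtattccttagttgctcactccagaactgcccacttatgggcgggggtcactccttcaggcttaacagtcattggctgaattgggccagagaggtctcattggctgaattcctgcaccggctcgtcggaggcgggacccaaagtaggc
MRPL54, chr19:3762532-3762706, plus strand: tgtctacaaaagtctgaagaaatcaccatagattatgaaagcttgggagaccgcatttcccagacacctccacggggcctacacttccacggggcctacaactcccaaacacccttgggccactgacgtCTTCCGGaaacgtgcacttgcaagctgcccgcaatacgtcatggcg
MRPS31, chr13:40771166-40771340, minus strand: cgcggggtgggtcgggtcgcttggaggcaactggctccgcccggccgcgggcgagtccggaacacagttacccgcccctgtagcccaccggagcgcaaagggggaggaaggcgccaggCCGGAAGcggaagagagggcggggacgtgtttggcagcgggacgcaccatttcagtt
MRPL42, chr12:93467364-93467538, plus strand: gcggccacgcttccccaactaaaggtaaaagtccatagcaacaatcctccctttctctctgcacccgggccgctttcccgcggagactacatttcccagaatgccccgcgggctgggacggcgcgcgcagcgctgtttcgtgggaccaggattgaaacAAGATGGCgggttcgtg
MRPS12, chr19:38930794-38930968, plus strand: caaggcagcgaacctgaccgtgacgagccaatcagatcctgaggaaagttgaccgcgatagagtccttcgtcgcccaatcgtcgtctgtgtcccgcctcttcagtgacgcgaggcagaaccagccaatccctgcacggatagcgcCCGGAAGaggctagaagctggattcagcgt
MRPS10, chr6:42217837-42218011, minus strand: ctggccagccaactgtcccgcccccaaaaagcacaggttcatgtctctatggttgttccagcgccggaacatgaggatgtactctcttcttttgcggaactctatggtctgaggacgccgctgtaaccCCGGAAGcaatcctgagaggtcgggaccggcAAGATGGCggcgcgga
MRPS18A, chr6:43687767-43687941, minus strand: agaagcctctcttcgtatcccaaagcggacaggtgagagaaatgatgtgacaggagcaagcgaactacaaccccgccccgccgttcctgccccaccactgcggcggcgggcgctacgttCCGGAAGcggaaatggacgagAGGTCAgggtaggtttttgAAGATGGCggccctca

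The letters of ETS and YY1 sites were frequent in these promoters. RefSeq promoters, from 250 bases before to 50 after the first listed start, were matched for 69 of the 77 genes and for 15100 coding genes; MRPL2, MRPL10, MRPL13, MRPL15, MRPL21, MRPL23, MRPL35 and MRPS28 had no match. The ETS core CCGGAAG, searched like all motifs on both strands, stood in 29 of 69 (42.0%, 30.2 to 54.5), against 14.4% of all promoters and 20.2% of those with a PML/RARA end peak. AAGATGGC, the core bound by YY1, stood in 20 of 69 (29.0%, 18.7 to 41.2), against 3.91% and 5.74%. On the gene's own strand it began between 1 and 40 bases into the gene in 15 of 17 matches, as in the MRPL42, MRPS10 and MRPS18A sequences above. CCGGAAG on that strand began within the last 60 bases before the start in 14 of 18 matches, as at MRPS31 and MRPS12. On the other strand this held for 8 of 21 matches, as at MRPL54, and 6 began between 1 and 40 bases into the gene. MRPL4, with the highest PPARα −log10 q, held neither.

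For AGGTCA, the core element of many nuclear receptors, the interval took in the background shares. AGGTCA, the core element of many nuclear receptors, stood in 11 of 69 promoters (15.9%, 8.24 to 26.7), against 11.7% of all. Exact direct repeats of AGGTCA with 1, 2 or 5 bases between them (DR1, DR2 and DR5) stood in 0 of 69 promoters, and in 3, 0 and 0 of 15100. AGGTCA stood in 7 of 41 promoters with a PPARα end peak (17.1%) and in 4 of 28 without (14.3%). Over all coding genes with a PPARα end peak the share was 9.46%. CCGGAAG stood in 18 of 41 (43.9%) and 11 of 28 (39.3%), and AAGATGGC in 11 of 41 (26.8%) and 9 of 28 (32.1%). The GC box GGGCGG stood in 60.9% (48.4 to 72.4, against 58.9% of all) and CCAAT in 29.0% (against 36.0%). The palindromic NRF1 site stood in 1 of 69 (against 1.77%). Of promoters with a PML/RARA end peak, 71.1%, 36.8% and 2.61% held these motifs. Each interval took in both backgrounds. A match is only a run of letters in this window, not evidence of binding. At the 41 genes with a PPARα end peak, the median PPARα summit lay 97 bases into the gene, past the end of this window. The sequence at many PPARα summits was therefore not searched. The AGGTCA, repeat, CCGGAAG and AAGATGGC counts thus cannot decide which letters lie under those summits. The promoters had a median GC content of 60.3% (59.3% with and 63.3% without a PPARα end peak), against 63.0% over all coding genes.

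**Figure D2:**
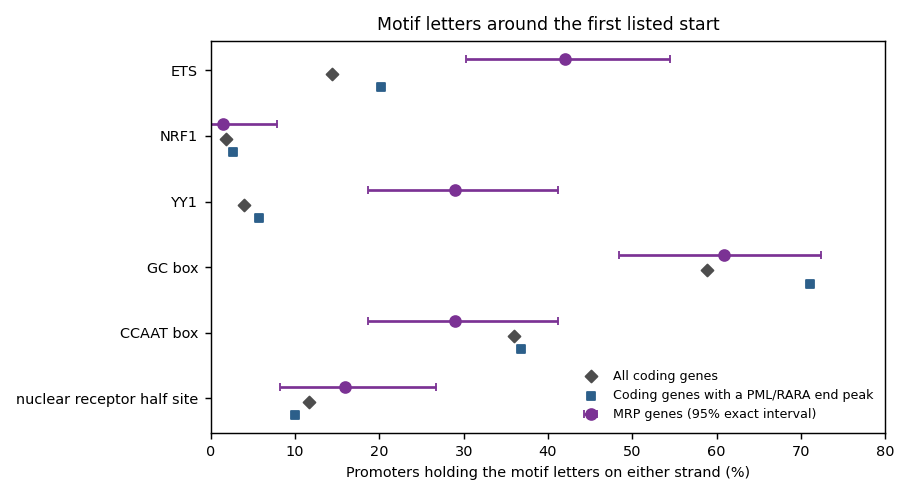
Share of promoters that hold each motif on either strand, for 69 mitochondrial ribosomal protein genes (circles, with 95% exact intervals), all 15100 coding genes (diamonds) and coding genes with a PML/RARA end peak (squares). ETS (42.0%) and YY1 (29.0%) letters lie above both backgrounds, and the other 4 motifs have intervals that include the share of all coding genes.

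Within the large subunit, genes around the exit tunnel and the stalk show how marking varied. Of the tunnel proteins, MRPL4 carried both antibodies strongly, while MRPL22 had a weak PPARα peak (fold 4.47, −log10 q 3.12) and no PML/RARA peak within 2606 bases of its ends. MRPL23 had 4 PML/RARA end peaks, the best of fold 5.95, and no PPARα end peak. MRPL47, also at the tunnel exit, had both (PPARα 5.51, PML/RARA 14.2). The stalk recruits translation factors: MRPL11 had both (9.51 and 15.9), as did MRPL10 (5.89 and 11.1), and MRPL12 had PML/RARA alone (12.2). MRPL58, which keeps a peptidyl-tRNA hydrolase fold, had both (6.36 and 16.0), and MRPL2, near the catalytic centre, had 8.82 and 19.8. MRPL38 (29.2), MRPL32 (23.9), MRPL14 (22.3) and MRPL20 (16.6) had PML/RARA folds above the median of the marked genes (15.6), with no PPARα end peak called.

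Within the small subunit every gene had PML/RARA, and the marks were again graded rather than uniform. MRPS12, a homologue of the bacterial decoding protein S12, had 7.67 for PPARα and 14.2 for PML/RARA. MRPS24, homologous to bacterial S3 at the messenger RNA entry, had 8.68 and 23.2, and MRPS5, at the same channel, had PML/RARA alone (9.83). Of the S18 paralogues, MRPS18B had 16.0 and 21.6, MRPS18C had 9.02 and 21.1, and MRPS18A had PML/RARA alone (9.82). MRPS27, a pentatricopeptide repeat protein gene, had 7.18 and 18.8. The other MRPS genes with PML/RARA alone were MRPS34 (6.48), MRPS11 (6.71), MRPS25 (12.4), MRPS21 (14.7), MRPS15 (15.9), MRPS6 (16.3) and MRPS10 (17.3).

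Genes with both antibodies had somewhat higher PML/RARA folds than genes with PML/RARA alone, and the groups overlapped. The PML/RARA fold ran from 6.43 through a median of 15.7 to 37.1 over the 45 genes with both. It ran from 5.95 through 13.0 to 34.5 over the 26 genes with PML/RARA alone. The medians over all coding genes were 17.0 and 9.996. Across the 45 genes the log2 folds of the antibodies had a Pearson r of 0.36 and a Spearman rho of 0.34, against 0.23 and 0.20 over 6209 coding genes with both; the points share 2 libraries, so this is a description.

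**Figure D3:**
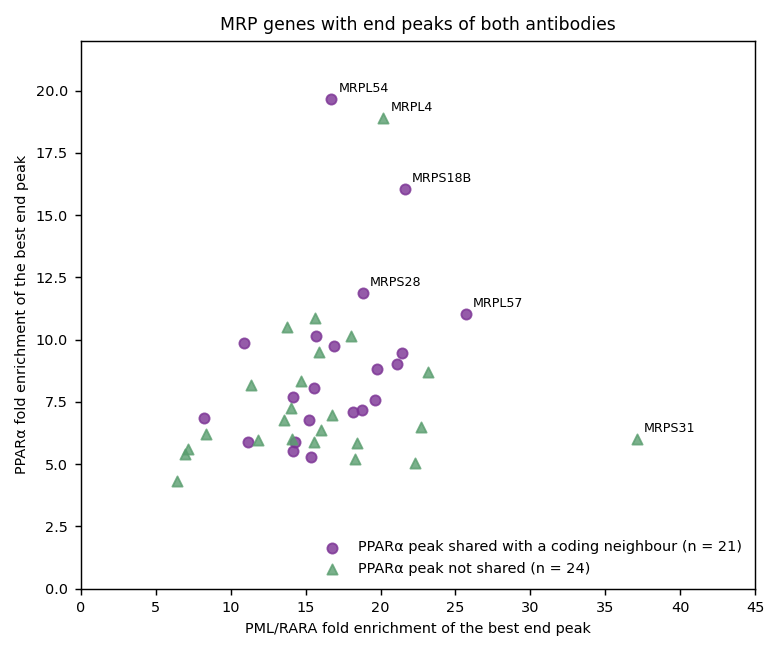
PPARα fold against PML/RARA fold of the best end peak for the 45 genes with both, with circles for a PPARα peak shared with a coding neighbour and triangles for one that was not. MRPL54, MRPL4 and MRPS18B stand at PPARα folds of 16.0 to 19.7, and MRPS31 at a PML/RARA fold of 37.1 with a PPARα fold of 6.01.

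The peaks lay at the start of the genes. Where the strand was listed, 41 of 69 genes had a PPARα peak at the annotated start (59.4%, against 33.8% of 15100 coding genes) and 3 at the finish (4.35%, against 2.79%). PML/RARA peaks lay at the start of 65 (94.2%, against 57.9%) and at the finish of 9 (13.0%, against 11.2%). MRPL34 was the only gene whose best PML/RARA peak lay at the finish alone. That peak (chromosome 19, 17305379 to 17305897) had its summit 22 bases before 1 of 4 listed starts of MRPL34.

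Most genes with no end peak of either antibody had a peak at a listed start inside the gene. Of the genes without a PPARα end peak, only MRPL24 and MRPL44 had a PPARα peak at a listed start. MRPL24 has a listed start beyond 1 kb from its annotated end, where a PPARα peak of fold 8.40 and a PML/RARA peak of fold 17.7 lay. MRPL44, an RNase III-like subunit gene, had folds of 4.83 and 16.1 at its listed start. MRPL36 had a PML/RARA peak of fold 17.4 there, 1046 bases from its nearer end and so the first outside the window. Counted by listed starts, PML/RARA marked 68 of 69 genes (98.6%, against 60.7% of coding genes), with MRPL22 the exception, and PPARα marked 43 of 69 (62.3%, against 35.7%). The gene just outside for PPARα was MRPL28 (1037 bases), and the farthest inside were MRPS2 for PPARα (725 bases) and MRPL39 for PML/RARA (272 bases). The nearest PML/RARA peak to an end of MRPL35 was 3669 bases away.

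The summits of the antibodies were offset. PML/RARA summits had a median position 44 bases before the nearest listed start (quartiles −121 and 23, n = 65), near the −69 over all coding genes. All 65 were within 500 bases, against 80.4% over all coding genes. PPARα summits had a median position 97 bases into the gene (quartiles −170 and 148, n = 41), and 40 were within 500 bases (97.6%, against 84.5%). The exception was MRPL51, at −921. The bin from 100 to 200 bases into the gene held 15 of 41 PPARα summits (36.6%), against 14.7% over all coding genes, where the median was −12. Where the best peaks overlapped, the PPARα summit was farther into the gene at 28 of 39 genes (71.8%, median offset 131 bases), against 54.7% and 39 bases over all coding genes. Cytosolic ribosomal protein genes went the other way, at 14 of 35 and −74 bases.

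**Figure D4:**
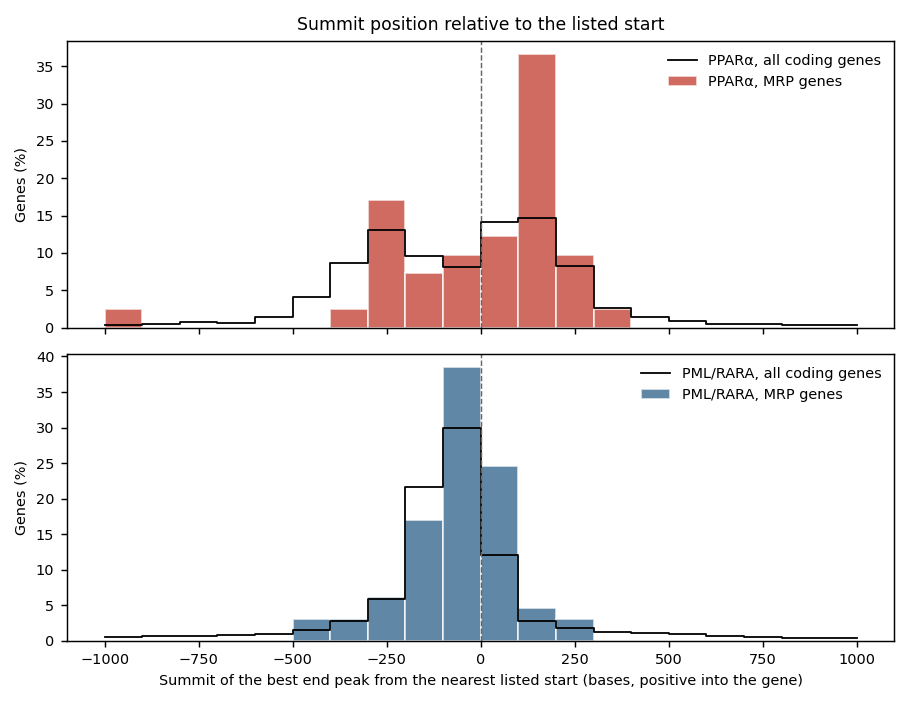
Position of the summit of the best end peak from the nearest listed start, in bins of 100 bases with positive values into the gene, as a percentage of genes, for PPARα (top, n = 41) and PML/RARA (bottom, n = 65), with all coding genes as a black line. PML/RARA summits gather at the start and PPARα summits mostly on either side of it, with the highest PPARα bar (36.6%) from 100 to 200 bases into the gene.

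Of 48 separate PPARα peaks at these gene ends, 46 overlapped a PML/RARA peak by at least 1 base (95.8%, 85.7 to 99.5), against 97.6% of PPARα peaks at all coding gene ends. Summits lay within 200 bases for 34 of the 48 (70.8%, against 57.2%). Of 94 PML/RARA peaks at the same gene ends, 50 overlapped a PPARα peak (53.2%, against 44.8%). Several PML/RARA peaks lay at the ends of 20 genes, and several PPARα peaks at 1, MRPL34, with no share over all coding genes computed.

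Many of these genes sit close to another gene, and the peaks were often shared with it. Another coding gene ended within 1 kb of 42 of 77 genes (54.5%, against 29.0% of all coding genes). Divergent pairs, with annotated starts within 1 kb on opposite strands, took in 23 of the 69 genes with a listed strand (33.3%, against 13.9%). A PPARα peak was shared when it also touched the end window of another coding gene, which held for 22 genes (28.6%, against 12.6%). PML/RARA peaks were shared at 38 (49.4%, against 20.0%). As shares of marked genes these were 46.8% (against 38.4%) and 53.5% (against 34.0%).

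The share of marked genes with a shared peak was similar in the subunits. PPARα peaks were shared at 13 of 28 marked large subunit genes and 9 of 19 small subunit genes, and PML/RARA peaks at 24 of 43 and 14 of 28. Among the PPARα peaks, shared ones were wider and a little stronger: the median width was 589 bases against 475, and the median fold 7.86 (quartiles 6.78 and 9.83) against 6.36 (5.85 and 8.34). Over all coding genes these were 643 against 556 bases and 7.39 against 6.87. A wide peak reaches a neighbour more easily by construction. For PML/RARA the median fold was 15.3 at genes with a shared peak and 15.6 at the others, while over all coding genes it was 15.7 and 13.4. The subunits went opposite ways here, at 14.2 with a shared peak and 15.9 without in the large subunit, and at 17.8 and 15.2 in the small. The median PML/RARA widths were 440.5 and 490.0 bases in the large subunit and 623.5 and 352.5 in the small. These folds and widths are of each gene's best peak, which need not be the shared one. It was not at MRPS24 (best fold 23.2, shared 4.66) and MRPL34 (18.2 and 12.9).

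In the genome at large, genes with a close neighbour were marked more often, while the pooled shares among these genes were close. PPARα marked 26 of 42 with a close coding neighbour (61.9%, 45.6 to 76.4) and 21 of 35 without (interval 42.1 to 76.1), while the shares over all coding genes were 50.4% and 25.7%. For PML/RARA the shares were 38 of 42 (90.5%) and 33 of 35 (94.3%), against 80.3% and 50.1%. In divergent pairs PPARα lay at 12 of 23 (52.2%, 30.6 to 73.2) and elsewhere at 29 of 46 (63.0%, 47.5 to 76.8), against 67.3% and 30.0% over all coding genes. With a close neighbour PPARα marked 15 of 28 MRPL (53.6%, 33.9 to 72.5) and 11 of 14 MRPS genes (78.6%, 49.2 to 95.3). Without one it marked 13 of 21 MRPL (61.9%, 38.4 to 81.9) and 8 of 14 MRPS genes (57.1%, 28.9 to 82.3). The pooled shares thus joined subunits that went opposite ways, all with overlapping intervals.

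Among the partners, 5 with a known mitochondrial role were picked out after their values were seen, with no count against other genes. MRPS12 and SARS2, the mitochondrial seryl-tRNA synthetase gene, start 181 bases apart and shared a peak of each antibody (PPARα 7.67, PML/RARA 14.2). MRPS27 and PTCD2, a mitochondrial RNA processing gene, shared both (7.18 and 18.8), as did MRPL47 and NDUFB5, a complex I subunit gene (5.51 and 14.2). MRPL43 shared only a PML/RARA peak (12.1) with TWNK, the mitochondrial DNA helicase gene. MRPL36 and NDUFS6, another complex I gene, overlap, with annotated starts 27 bases apart, and shared no peak in the windows. The listed start of MRPL36, described above, lies farther inside its gene.

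MRPL46 and MRPS11 were the only divergent pair inside the family. They start 320 bases apart, shared a pair of PML/RARA peaks of folds 6.71 and 6.67, and had no PPARα peak, the nearest being 78940 and 65552 bases away.

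The remaining PPARα sharing involved genes of varied roles. The strongest were MRPL54 with APBA3 (19.7) and MRPS18B with PPP1R10, a protein phosphatase regulator gene (16.0). MRPS28 with TPD52 (11.9), MRPL57 with SKA3, a kinetochore gene (11.0), MRPL18 with TCP1, a chaperonin gene (10.2), MRPL53 with CCDC142 (9.86) and MRPS26 with GNRH2 (9.75) came next. MRPS16 with CFAP70 (9.45), MRPS18C with the helicase gene HELQ (9.02), MRPL2 with KLC4 (8.82), MRPL51 with the condensin gene NCAPD2 (8.04), MRPS7 with GGA3 (7.59), MRPL34 with ABHD8 (7.08), MRPL30 with MITD1 (6.86) and MRPL9 with OAZ3 (6.76) had intermediate folds. MRPL10 with LRRC46 (5.89), MRPL21 with IGHMBP2 (5.87), MRPS2 with PIERCE1 (5.27) and MRPL13 with MTBP (4.29) were the lowest besides MRPL47.

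PML/RARA sharing without a PPARα peak took in MRPL49 with FAU (17.8), MRPL32 with the proteasome gene PSMA2 (23.9), MRPL14 with TMEM63B (22.3), MRPS6 with SLC5A3 (16.3), MRPL40 with the histone chaperone gene HIRA (14.5), MRPL50 with ZNF189 (13.6) and MRPL12 with HGS (12.2). MRPL37 with CYB5RL (10.5), MRPL28 with PGAP6 (10.2), MRPS5 with ZNF514 (9.83), MRPL27 with EME1 (8.80) and MRPS34 with EME2 (6.48) had lower folds. At MRPL41 the PML/RARA peak (14.1) was shared with PNPLA7, while its PPARα peak (6.01) was not. Second, weaker PML/RARA peaks were shared by MRPL2 with CUL7 (15.5), MRPS18B with ATAT1 (15.5) and MRPS7 with MIF4GD (6.44). MRPS24 counted only through a readthrough gene that contains it, with a weak PML/RARA peak at its finish (4.66).

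Of the other lists of mitochondrial translation, most lay above the shares of all coding genes (32.8% for PPARα and 58.8% for PML/RARA), and 1 did not for PPARα. Of 6 ribosome subunit genes named otherwise, PML/RARA marked 6 and PPARα 2 (33.3%, 4.33 to 77.7), DAP3 (PPARα 11.6) and PTCD3 (7.35). Of 23 assembly and ribosomal RNA modification genes, PML/RARA marked 23 and PPARα 21 (91.3%, 72.0 to 98.9), with the highest PPARα −log10 q at TFB1M (fold 15.1), FASTKD2 (11.7) and RPUSD4 (11.7). Of 17 translation factor genes PML/RARA marked 17 and PPARα 12 (70.6%), led by LRPPRC (15.6), MTRFR (9.88) and GUF1 (7.63). Of 22 genes for mitochondrial tRNA charging PML/RARA marked 21 and PPARα 13 (59.1%), led by CARS2 (9.23), WARS2 (14.3) and NARS2 (10.9). Cytosolic ribosomal protein genes had PML/RARA at 73 of 73 and PPARα at 49 (67.1%, 55.1 to 77.7). Their median folds were 17.4 and 7.30.

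**Figure D5:**
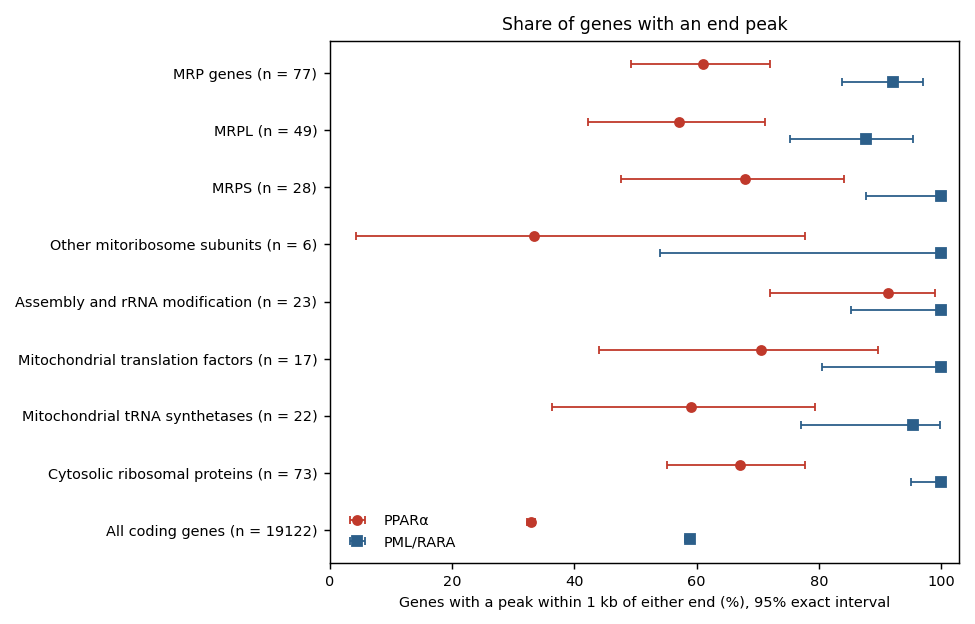
Share of genes with a peak within 1 kb of either end, with 95% exact intervals, for PPARα (circles) and PML/RARA (squares) in each gene list. For both antibodies the mitochondrial ribosomal protein genes (61.0% and 92.2%) lie above all coding genes (32.8% and 58.8%), and the highest PPARα share is that of the assembly genes (91.3%).

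As a check of the cell type, which peaks can support only loosely since they do not measure expression, PML/RARA end peaks lay at 7 of 9 granulocyte precursor markers, 4 of 7 lymphocyte markers and 0 of 3 erythroid markers. PPARα end peaks lay at 1, 1 and 0 of them. Against 58.8% and 32.8% of all coding genes, with so few markers, these counts do not separate the cell types.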

How the data were processed

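The authors deposited 9829 PPARα and 46021 PML/RARA peaks. The submitters' processing notes name the hg38 build and, with no role or order, bedtools, MACS 1.4.2, SAMtools and Bowtie2 2.2.9. Use of IgG, duplicate removal and masking are not given in the sources used here. Both deposited lists hold a linear fold enrichment (ratio) and −log10 of the q-value. Each was assigned to the antibody's library by the antibody in its name. Chromosomes 1 to 22 held 9573 and 45085 peaks. Genes, starts and promoters came from RefSeq (GRCh38.p14, the hg38 assembly). Peaks within 1 kb of either gene end were counted and the highest −log10 q chosen (Python 3.11.15, pandas 2.3.3, scipy 1.17.1). Shares carry 95% Clopper-Pearson intervals; no test was run, because each antibody has 1 list. Overlap counting was tested on simulated peaks. The members and lists were chosen with earlier results of these data known. Named genes were the 10 highest per list, genes with PPARα alone or no peak, sharing genes, those next to the window limit and up to 3 per pathway list; genes of each role were added after their values were seen.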

Additional observations from a re-analysis of the deposited data

How the results depend on the processing

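Of 74 alternative counts over 10 results, 63 stayed within 1.5 times the main count; none used replicates, and the cause of the others was not tested beyond what their construction shows. With the PML/RARA list shortened to its 9573 highest −log10 q, PML/RARA marked 37 of 77 genes (48.1%, against 30.8% of coding genes), 22 of 49 MRPL and 15 of 28 MRPS genes, and both antibodies 26 (33.8%, against 22.7%). Counting only annotated finishes, PPARα marked 3 of 69 genes (3 MRPL, 0 MRPS), PML/RARA 9 (5 MRPL, 4 MRPS) and both 3. Windows of 500 bases or 5 kb gave 46 and 52 genes with PPARα (against 31.0% and 39.3% of coding genes), and −log10 q of at least 5 gave 38 (against 24.3%). Listed starts and the removal of readthrough genes (sharing at 37 genes for PML/RARA) were chosen after seeing the data. With neighbours of any annotated kind, sharing took in 27 genes for PPARα and 46 for PML/RARA. By construction a wider set of neighbours cannot lower these counts, and the shares over all coding genes were not computed. When 50% of the shorter peak had to be covered, 38 of 48 PPARα peaks overlapped PML/RARA (79.2%, below the 89.9% at all coding gene ends). Unknown depth limits every missing peak. No paired analysis was possible because each antibody has 1 list and no replicate.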
